A study of Mus musculus with 4 samples.

Results

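The Hedgehog genes described here are 9 genes, Shh, Ihh, Ptch1, Smo, Gli1, Gli2, Gli3, Hhip and Sufu, chosen by symbol from the 52125 gene rows of the table. All 9 were present, and all 9 passed the filter on low counts that left 18285 genes for testing. RNA was sequenced from the corpus, the part of the stomach whose glands secrete acid, of C57BL/6 wild-type mice aged 6 to 8 weeks. In the HDT group 2 mice had received HDT once into the peritoneum, to injure the stomach, at 5 mg for every 20 g of mouse, and the Vehicle group held 2 mice. Both groups were labelled 48 hr, and each library came from 1 mouse. HDT commonly stands for high-dose tamoxifen in studies of gastric injury, but the labels do not spell it out. The labels name the controls vehicle in the titles and untreated in the protocol, so whether they were injected is not known.

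In Hedgehog signalling a secreted ligand binds the receptor Patched and so lifts its block on the membrane protein Smoothened. Gli transcription factors are then activated by way of the primary cilium. Ptch1, Gli1 and Hhip are themselves switched on by the pathway, so their RNA is widely used as a readout of it. In the mouse stomach Shh is known from acid-secreting parietal cells and other gland cells and Ihh from surface mucous, or pit, cells, while the response is known mainly from the stroma beneath the epithelium.

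Promoter sequences are shown for 3 members that rose, because 2 of them hold the core of the Gli binding motif and Ptch1, a textbook Gli target, does not hold it in this window. RefSeq promoters on GRCm38.p6 were matched for 7 of the 9 members, Ihh, Gli2, Smo, Hhip, Gli3, Ptch1 and Sufu. The windows are the 250 bases before each start, given 5′ to 3′ on the gene's strand, with the core motif in capitals. They lie at chr6:29735247-29735496 on the plus strand for Smo, chr8:80058009-80058258 on the minus strand for Hhip and chr13:63565736-63565985 on the minus strand for Ptch1, and none of these 3 overlaps an exon of GENCODE M21. The Ptch1 window lies inside the annotated gene, in an intron of its longer transcripts.
Smo: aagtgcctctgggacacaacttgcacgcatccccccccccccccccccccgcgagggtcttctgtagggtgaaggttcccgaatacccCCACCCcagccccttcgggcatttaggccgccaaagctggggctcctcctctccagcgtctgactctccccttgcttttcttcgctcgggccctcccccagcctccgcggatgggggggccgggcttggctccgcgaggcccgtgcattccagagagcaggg
Hhip: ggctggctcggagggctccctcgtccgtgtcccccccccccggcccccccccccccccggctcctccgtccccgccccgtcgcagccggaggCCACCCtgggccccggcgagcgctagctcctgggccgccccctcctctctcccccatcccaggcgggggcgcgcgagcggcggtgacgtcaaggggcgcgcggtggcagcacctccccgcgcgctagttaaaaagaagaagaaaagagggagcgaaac
Ptch1: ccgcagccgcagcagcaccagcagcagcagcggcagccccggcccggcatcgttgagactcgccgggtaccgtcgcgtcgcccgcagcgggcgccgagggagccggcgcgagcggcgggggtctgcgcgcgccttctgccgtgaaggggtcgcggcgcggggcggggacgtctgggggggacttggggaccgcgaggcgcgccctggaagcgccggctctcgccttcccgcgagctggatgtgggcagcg
The full Gli motif GACCACCCA, searched on both strands, was found in 0 of the 7 member windows and in 0.225% of all 32851 promoter windows of this length. Its core CCACCC, inside the full motif, was found on either strand in 5 of the 7 windows and in 28.1% of all windows. The 5 were those of Ihh, Gli2, Smo, Hhip and Gli3. G and C made up 67.2% to 76.0% of these 5 windows, 78.4% of the Ptch1 window and 54.0% of the Sufu window. The share over all windows was not matched for base composition. The match ended 156 bases before the start in Smo and 152 bases before it in Hhip. Of the 5 genes with a core match, Smo and Hhip rose at 48 hr while Ihh, Gli2 and Gli3 had no call. Ptch1 and Sufu, whose windows held no core match, both rose. A match of letters is a description of the window and says nothing of binding.

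Total reads were similar, at 42175023 and 42674985 reads in the HDT libraries and 41536686 and 42104568 reads in the Vehicle libraries. With TMM factors of 1.219 and 1.183 in HDT and 0.848 and 0.818 in Vehicle, a gene at the same CPM gets fewer reads in Vehicle. Levels are CPM, reads of a gene relative to all reads of its library with the library size between libraries by the TMM method. Fold changes are on the log2(value + 1) scale and come from limma over all 18285 genes, with adjusted p-values after Benjamini and Hochberg and a threshold of 0.05. The libraries carried corpus markers at high levels, with the parietal cell pump genes Atp4a and Atp4b, the pit cell gastrokine genes Gkn2 and Gkn1 and the chief cell genes Pgc and Gif in every library. In bulk RNA, fewer cells of a type and less RNA per cell cannot be told apart. The choice of scaling shifts all genes together: the values as deposited, without TMM, put the median over all tested genes at a log2 fold change of 0.526, against -0.001 with TMM.

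At 48 hr after HDT the members that rose were receptor, response and inhibitor genes, and the ligands were not called. The receptor Ptch1, the transducer Smo, the transcription factor Gli1, the ligand-trapping protein Hhip and the Gli-binding inhibitor Sufu rose, by 0.31 to 1.04 on the log2 scale. The ligands Shh and Ihh and the transcription factors Gli2 and Gli3 had no call. Thus 5 of 9 members were called higher, against 18.4% of all tested genes called higher, and 0 of 9 were called lower, against 19.3% (37.7% of all genes were called in either direction). The median log2 fold change of the 9 members was 0.31. With the values as deposited 8 of 9 were called higher, where 62.8% of all genes were. Groups did not overlap for 6 of 9 members, where 70.8% of all tested genes did not, and in all 6 HDT was the higher group, as in 35.3% of all tested genes.

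**Figure D1:**
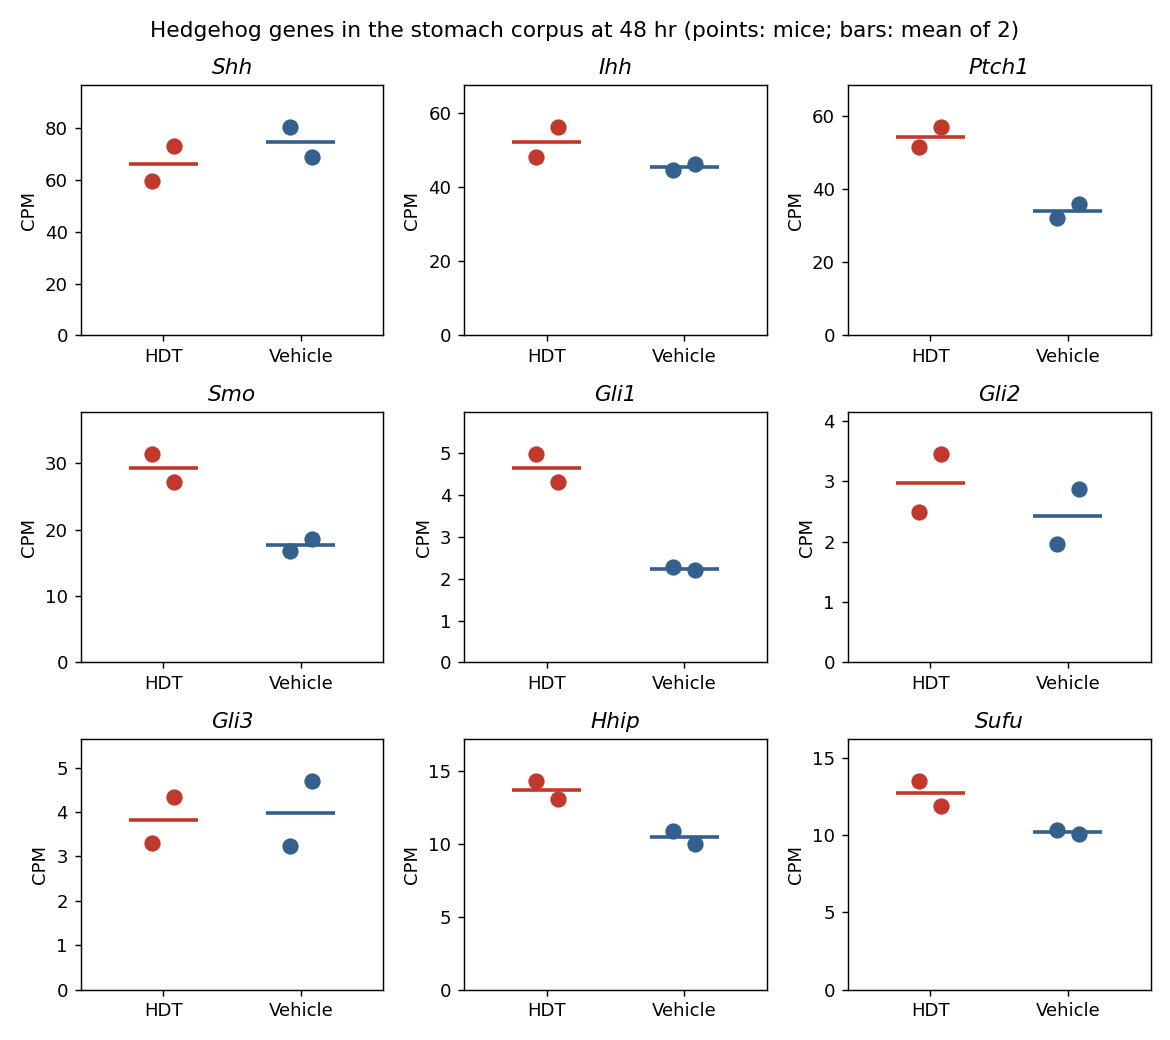
CPM of the 9 Hedgehog genes in each library, with HDT left of Vehicle, points for single mice and bars for the mean of 2 mice; each vertical axis starts at 0. The HDT points lie above the Vehicle points for Ihh, Ptch1, Smo, Gli1, Hhip and Sufu, while Shh, Gli2 and Gli3 overlap.

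The ligands come first. Shh, on chromosome 5 at 28456815 to 28467256 on the minus strand (GRCm38, GENCODE M21), encodes Sonic hedgehog. It was at 59.6 and 73.0 CPM in HDT mice, against 80.6 and 68.7 CPM in Vehicle mice. The groups overlapped, with HDT replicate 1 the lowest and Vehicle replicate 1 the highest library. The log2 fold change of Shh was -0.17 (SE 0.119, 95% interval -0.46 to 0.11, limma adjusted p = 0.302), and with the values as deposited it was 0.36 (limma adjusted p = 0.0399), so the sign depends on the scaling. Markers of the parietal cell moved far more: 6 of 7 were lower, and their summed level was 1830 and 1470 CPM in HDT mice against 11900 and 13000 CPM in Vehicle mice, with none of the 7 at 0 reads. Shh per 1000 CPM of these markers was 32.6 and 49.7 CPM in HDT mice, against 6.79 and 5.28 CPM in Vehicle mice. The Shh interval thus excludes a fall of the size seen in the pump genes Atp4a (log2 fold change -2.87) and Atp4b (-3.20), for which the limma adjusted p was 5.4e-06 and 8.44e-07.

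Reads of Shh may be gained or lost in counting where its exons are shared. Annotated opposite-strand genes share exon bases with it, 361 bases (12.7% of its 2847 exon bases) with the noncoding gene Gm26894 and 446 bases (15.7%) with the antisense gene 9530036O11Rik, and the strand setting of the counting is not given in the sources used here. Gm26894 had 1802 and 2192 reads in HDT mice and 1757 and 1434 reads in Vehicle mice. Per read of Shh that is 0.588 and 0.595 in HDT mice and 0.62 and 0.606 in Vehicle mice, a near-constant ratio. For 9530036O11Rik the ratio was 0.185 and 0.187 in HDT mice, against 0.179 and 0.178 in Vehicle mice. Shh and these 2 neighbours thus nearly kept their proportions, and reads within the shared bases cannot be told apart if strand was not used.

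Ihh, on chromosome 1 at 74945315 to 74951672 on the minus strand, encodes Indian hedgehog. It was at 48.1 and 56.4 CPM in HDT mice, against 44.7 and 46.2 CPM in Vehicle mice, and the groups did not overlap. The log2 fold change of 0.20 was not called (SE 0.0845, limma adjusted p = 0.106). Without HDT replicate 1 it was 0.32 and called (limma adjusted p = 0.0148), and as deposited 0.73 and called (limma adjusted p = 2.54e-05). All 5 pit cell markers were lower, their summed level being 61700 and 75900 CPM in HDT mice and 115000 and 112000 CPM in Vehicle mice, with none at 0 reads. Gkn1 and Gkn2, the most abundant of them, had log2 fold changes of -0.83 (limma adjusted p = 0.00298) and -0.79 (limma adjusted p = 0.00223). With the values as deposited only 1 of the 5 pit markers was called lower. There Gkn1 was at -0.29 (limma adjusted p = 0.0801) and Gkn2 at -0.25 (limma adjusted p = 0.0975), so these calls depend on the scaling. Ihh per 1000 CPM of pit markers was 0.78 and 0.743 CPM in HDT mice, against 0.388 and 0.413 CPM in Vehicle mice.

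The balance of the 2 ligands can be read within a library, where no scaling enters. Ihh had 0.806 and 0.772 reads per read of Shh in HDT mice, against 0.555 and 0.672 in Vehicle mice. Both HDT values lay above both Vehicle values. With 2 against 2 libraries an exact two-sided permutation test cannot give a p below 0.333, so this and the other ratios stand as values.

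The receptors follow. Ptch1, on chromosome 13 at 63508328 to 63573598 on the minus strand, encodes the Hedgehog receptor that holds Smoothened back, and it is also a target of the pathway. It was at 51.5 and 57.0 CPM in HDT mice, against 32.1 and 36.0 CPM in Vehicle mice. The groups were well apart, with the lowest HDT library above the highest Vehicle library. Ptch1 rose by 0.67 on the log2 scale (limma, SE 0.0826, adjusted p = 0.000524), more than 90.6% of all tested genes.

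Smo, on chromosome 6 at 29735503 to 29761365 on the plus strand, encodes Smoothened, which passes the signal on and is not itself a standard target. It was at 31.4 and 27.2 CPM in HDT mice, against 16.8 and 18.6 CPM in Vehicle mice, without overlap. Smo rose by 0.72 on the log2 scale (limma, SE 0.0948, adjusted p = 0.000718), more than 91.6% of all tested genes. Ptch1 and Smo kept a similar proportion, with 1.64 and 2.10 reads of Ptch1 per read of Smo in HDT mice and 1.91 and 1.93 in Vehicle mice. The HDT values lay on either side of the Vehicle values.

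The response genes Gli1 and Hhip differed in size. Gli1, on chromosome 10 at 127329882 to 127341974 on the minus strand, encodes the Gli factor that acts as an activator and whose own transcription depends on the pathway. It had 256 and 217 reads in HDT mice, against 80 and 76 reads in Vehicle mice, or 4.98 and 4.30 CPM against 2.27 and 2.21 CPM. Gli1 thus had few reads, but its groups were far apart and its Vehicle libraries nearly equal. Gli1 rose by 1.04 on the log2 scale (limma, SE 0.156, 95% interval 0.68 to 1.40, adjusted p = 0.00142), a 2.06-fold level and more than 95.5% of all tested genes. Of its 4995 exon bases, 62 (1.24%) are shared with the opposite-strand gene Arhgap9, which had 127 and 107 reads in HDT mice and 53 and 39 in Vehicle mice. Another 265 (5.31%) are shared with the antisense gene Gm47200, for which the deposited values hold no entry under that symbol. As for Shh, reads within the shared bases cannot be told apart if strand was not used.

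Hhip, on chromosome 8 at 79965851 to 80058006 on the minus strand, encodes a membrane and secreted protein that binds Hedgehog ligands and is induced by the pathway. It was at 14.3 and 13.1 CPM in HDT mice, against 10.9 and 9.96 CPM in Vehicle mice. The groups did not overlap, but the gap was smaller than for Ptch1. Hhip rose by 0.39 on the log2 scale (limma, SE 0.0995, adjusted p = 0.0167). Leaving out Vehicle replicate 2 (0.32, limma adjusted p = 0.0775) or HDT replicate 1 (0.33, limma adjusted p = 0.0872) ended the call. Hhip had 0.278 and 0.229 reads per read of Ptch1 in HDT mice, against 0.34 and 0.277 in Vehicle mice, overlapping only by the nearly equal values of HDT replicate 1 and Vehicle replicate 2.

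For Sufu the change was small, and for Gli2 and Gli3 it was not called. Sufu, on chromosome 19 at 46396896 to 46488804 on the plus strand, encodes the protein that binds Gli factors and restrains them. It was at 13.5 and 11.9 CPM in HDT mice, against 10.3 and 10.1 CPM in Vehicle mice, without overlap. Sufu rose by 0.31 on the log2 scale (limma, SE 0.101, adjusted p = 0.0429), close to the threshold. The call was lost with edgeR's quasi-likelihood test on recovered reads (log2 fold change 0.31, edgeR adjusted p = 0.0521), with the DESeq2 Wald test (DESeq2 adjusted p = 0.122), and without Vehicle replicate 1, Vehicle replicate 2 or HDT replicate 1 (limma adjusted p = 0.101, 0.125 and 0.197).

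Gli2, on chromosome 1 at 118834132 to 119053619 on the minus strand, encodes the main activator at the start of a response. It had 128 and 174 reads in HDT mice, against 69 and 99 reads in Vehicle mice, or 2.49 and 3.45 CPM against 1.96 and 2.87 CPM. The groups overlapped once scaled, and the log2 fold change of 0.30 was not called (95% interval -0.26 to 0.86, limma adjusted p = 0.367). Leaving out 1 library put it between 0.02 (without Vehicle replicate 1) and 0.57 (without Vehicle replicate 2), not called in either case, and as deposited it was 0.83 and called (limma adjusted p = 0.00867). Gli3, on chromosome 13 at 15463235 to 15730026 on the plus strand, encodes the factor best known as the repressor form of the pathway. It was at 3.31 and 4.34 CPM in HDT mice, against 3.24 and 4.70 CPM in Vehicle mice, with overlap. Its log2 fold change was -0.04 (95% interval -0.55 to 0.46, limma adjusted p = 0.896), and 0.49 as deposited (limma adjusted p = 0.0563).

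**Figure D2:**
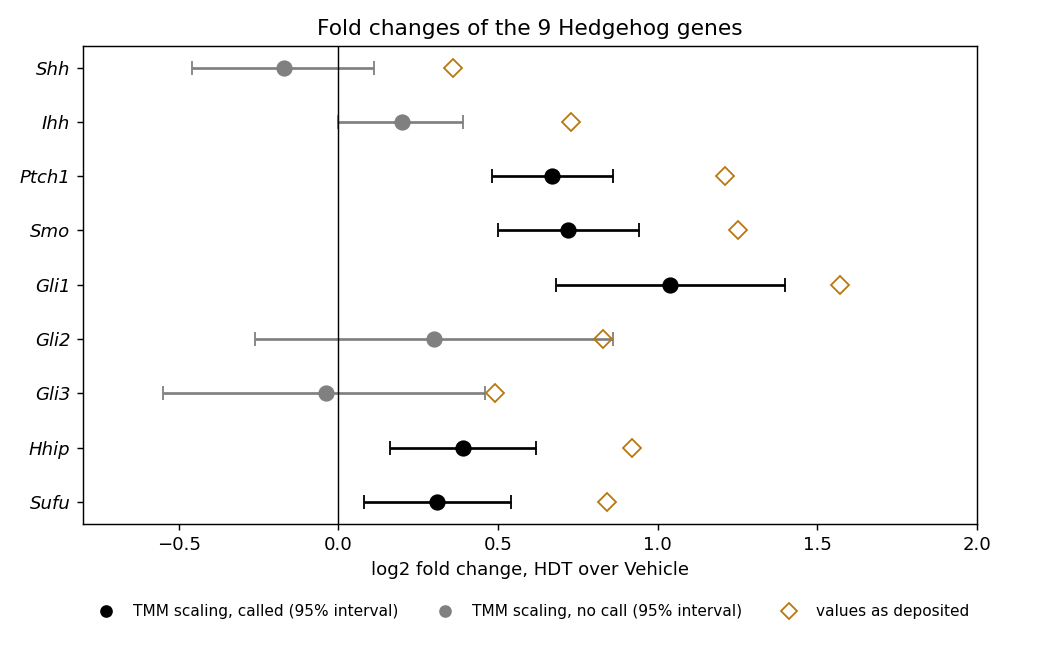
Log2 fold change of each Hedgehog gene, HDT over Vehicle, with TMM scaling (circles, bars for the 95% interval, black where called and grey where not) and from the values as deposited (open diamonds, without intervals). Gli1 lies highest at 1.04, and the diamonds lie to the right of every circle, with Shh and Gli3 changing sign.

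Gli1 was also set against the other Gli genes within each library. Per read of Gli3 there were 1.51 and 0.991 reads of Gli1 in HDT mice, against 0.702 and 0.469 in Vehicle mice. Per read of Gli2 there were 2.0 and 1.25 reads of Gli1 in HDT mice, against 1.16 and 0.768 in Vehicle mice. In both cases the 2 HDT values lay above the 2 Vehicle values. For Gli2 the gap was narrow, between 1.25 in HDT replicate 2 and 1.16 in Vehicle replicate 1, and all of these genes had few reads. Target and ligand also parted: Ptch1 had 0.864 and 0.781 reads per read of Shh in HDT mice, against 0.398 and 0.523 in Vehicle mice.

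Levels of different genes were compared per kilobase of exon, as CPM per kb over all annotated exons. In HDT mice the order was Shh at 23.3 ± 3.33, Ihh at 17.1 ± 1.93, Smo at 5.21 ± 0.528, Ptch1 at 3.83 ± 0.276, Sufu at 1.65 ± 0.146, Hhip at 1.51 ± 0.0976, Gli1 at 0.929 ± 0.096, Gli2 at 0.432 ± 0.0987 and Gli3 at 0.399 ± 0.0762 CPM per kb (SD, n = 2). Only the neighbours Sufu and Hhip, and Gli2 and Gli3, overlapped in their HDT libraries. In Vehicle mice the order was Shh at 26.2 ± 2.94, Ihh at 14.9 ± 0.331, Smo at 3.15 ± 0.226, Ptch1 at 2.40 ± 0.193, Sufu at 1.33 ± 0.019, Hhip at 1.15 ± 0.0739, Gli1 at 0.448 ± 0.0093, Gli3 at 0.414 ± 0.108 and Gli2 at 0.352 ± 0.0941 CPM per kb (SD, n = 2). There Gli1 overlapped with Gli3, and Gli3 with Gli2, so Gli1 stood above both other Gli genes in the 2 HDT libraries but above Gli2 alone in the Vehicle libraries. The exons of Ptch1 add up to 14185 bases over all its annotated transcripts, so its level per kb is understated if shorter transcripts are used.

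Fibroblast markers moved with the response genes. Of 6 fibroblast markers 5 were higher, and their summed level was 1880 and 2120 CPM in HDT mice against 1030 and 1010 CPM in Vehicle mice, with none at 0 reads. The collagen genes Col3a1 and Col1a1, the most abundant of them, rose by 0.90 (limma adjusted p = 7.81e-05) and 1.51 (limma adjusted p = 2.01e-05) on the log2 scale. Dcn, chosen after its values were seen, had no call, at 193 and 203 CPM in HDT mice and 190 and 194 CPM in Vehicle mice. In HDT replicate 1 the collagen genes Col1a1, Col1a2 and Col3a1 made up 515, 429 and 629 of the summed 1880 CPM. In Vehicle replicate 1 they made up 197, 205 and 367 of 1030 CPM, so ratios to this sum are largely ratios to collagen RNA. Gli1 per 1000 CPM of fibroblast markers was 2.65 and 2.03 CPM in HDT mice, against 2.22 and 2.19 CPM in Vehicle mice. These values overlapped. Ptch1 on the same measure was 27.4 and 27.0 CPM in HDT mice, against 31.3 and 35.6 CPM in Vehicle mice, and Hhip 7.61 and 6.17 CPM in HDT mice, against 10.6 and 9.86 CPM in Vehicle mice, both without overlap. Smo overlapped, at 16.7 and 12.8 CPM in HDT mice and 16.4 and 18.4 CPM in Vehicle mice. The part of the fibroblast markers in the rises was not tested.

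Smooth muscle markers were not called. Limma called 0 of 6, the most abundant being Acta2 (log2 fold change -0.27, limma adjusted p = 0.489) and Myh11 (-0.10, limma adjusted p = 0.791). Their summed level was 1740 and 2550 CPM in HDT mice, against 2890 and 2040 CPM in Vehicle mice, with overlap. Gli1 per 1000 CPM of smooth muscle markers was 2.86 and 1.69 CPM in HDT mice, against 0.786 and 1.08 CPM in Vehicle mice, without overlap.

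**Figure D3:**
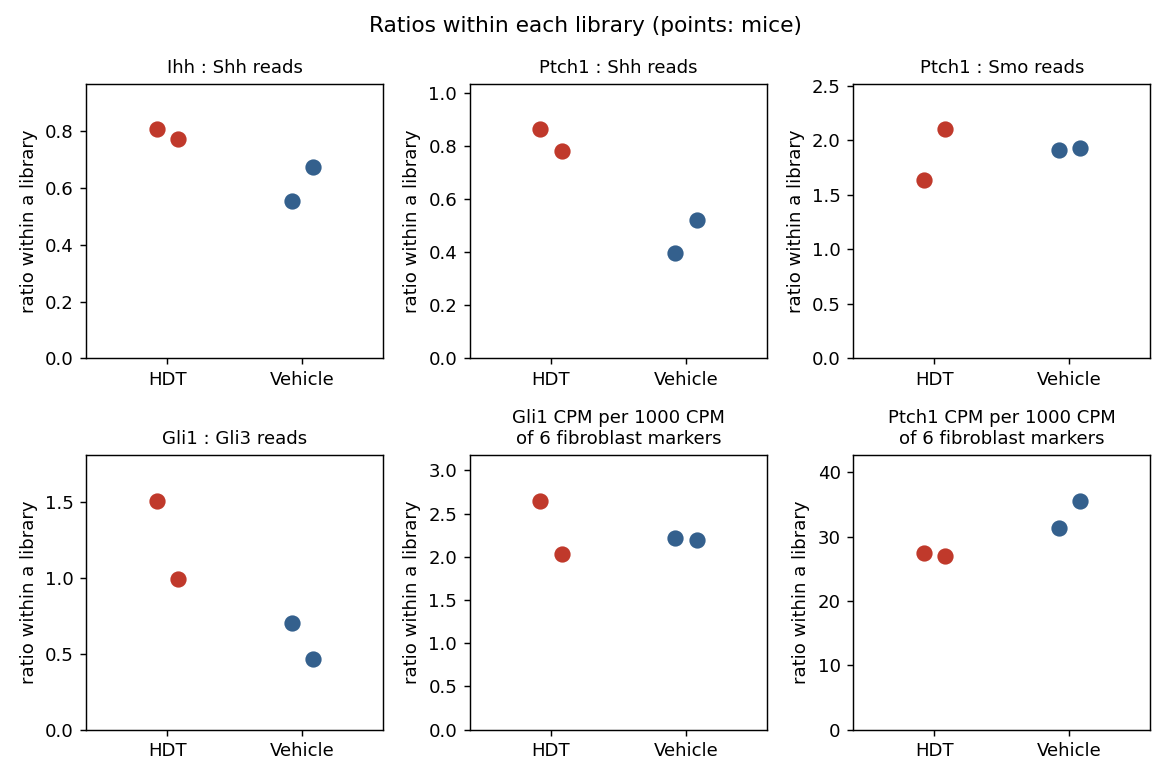
Ratios within each library, with HDT left of Vehicle and points for single mice: reads of 1 gene per read of another (Ihh to Shh, Ptch1 to Shh, Ptch1 to Smo, Gli1 to Gli3), and CPM of Gli1 and Ptch1 per 1000 CPM of 6 fibroblast markers. The HDT points lie higher for Ihh to Shh, Ptch1 to Shh and Gli1 to Gli3, overlap Vehicle for Ptch1 to Smo and for Gli1 per fibroblast markers, and lie lower for Ptch1 per fibroblast markers.

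Further genes of the pathway were taken as lists by role. All 40 such genes were tested. Limma called 6 higher and 4 lower and left 30 uncalled, and the median log2 fold change was 0.07. Shares of 6 and 4 of 40 are below the 18.4% and 19.3% of all genes called higher and lower. With the values as deposited 31 were higher and 1 was lower, with a median of 0.60.

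Of 7 genes for making and releasing the ligands, 2 were higher and 5 without a call. Disp1, which encodes the Dispatched protein that frees lipid-bearing ligand from the cell, was at 25.7 and 24.6 CPM in HDT mice, against 17.7 and 19.9 CPM in Vehicle mice, a log2 fold change of 0.42 (limma adjusted p = 0.00568). Scube1, of a family of secreted carriers of the ligand, was at 24.5 and 21.9 CPM in HDT mice, against 13.4 and 16.9 CPM in Vehicle mice, a log2 fold change of 0.62 (limma adjusted p = 0.00574). The third ligand gene, Dhh, had 20 and 27 reads in HDT mice and 12 and 21 reads in Vehicle mice and no call (limma adjusted p = 0.998).

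Of 5 co-receptors and other ligand-binding proteins, 2 were lower and 3 without a call. Gas1, a membrane co-receptor that helps cells respond to ligand and that the pathway is known to repress in the mouse embryo, was at 13.9 and 20.7 CPM in HDT mice, against 33.8 and 31.8 CPM in Vehicle mice. It fell by 0.95 on the log2 scale (limma, SE 0.20, adjusted p = 0.0202). The call ended, by limma adjusted p, on leaving out Vehicle replicate 1 (0.218) or Vehicle replicate 2 (0.219), with no low-count filter (0.0509) and as deposited (0.115). Lrp2, a large endocytic receptor, was at 0.758 and 0.456 CPM in HDT mice, against 2.36 and 2.82 CPM in Vehicle mice, and fell by 2.09 on the log2 scale (limma adjusted p = 0.000848). The co-receptor genes Boc and Cdon had log2 fold changes of 0.17 and -0.16 without a call.

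Of 9 genes of the cilium and of signal transduction 1 was higher and 8 without a call. Gpr161, a ciliary receptor that restrains the pathway, was at 3.93 and 4.52 CPM in HDT mice, against 3.01 and 3.11 CPM in Vehicle mice, a log2 fold change of 0.46 (limma adjusted p = 0.0438). Its call was lost without any 1 of the 4 libraries, without Vehicle replicate 1 (limma adjusted p = 0.143), Vehicle replicate 2 (0.0989), HDT replicate 1 (0.0526) or HDT replicate 2 (0.166). Of 9 genes of the kinases and ubiquitin ligases that act on Gli proteins, 2 were lower and 7 without a call. Spop, the adaptor that targets Gli proteins for degradation, was at 74.6 and 77.9 CPM in HDT mice, against 110 and 109 CPM in Vehicle mice. It fell by 0.52 on the log2 scale (limma, SE 0.0598, adjusted p = 0.000376), but was at 0.01 as deposited (limma adjusted p = 0.877). Prkacb, a catalytic subunit of protein kinase A, fell by 0.21 on the log2 scale (limma adjusted p = 0.0386), and was 0.32 higher and called as deposited (limma adjusted p = 0.00321). It was not called without Vehicle replicate 1 (0.171), Vehicle replicate 2 (0.0977) or HDT replicate 2 (0.174).

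Of 10 further genes reported as targets, 3 were higher and 7 without a call. Foxl1, a transcription factor gene of the stromal cells beneath the gut epithelium, was at 3.48 and 4.20 CPM in HDT mice, against 1.39 and 1.71 CPM in Vehicle mice. It rose by 1.30 on the log2 scale (limma, SE 0.192, adjusted p = 0.00132), the largest called rise among the 9 members and the 40 listed genes. Wnt5a, a Wnt ligand gene of the stroma, was at 28.2 and 31.4 CPM in HDT mice, against 18.7 and 20.5 CPM in Vehicle mice, and rose by 0.60 (limma adjusted p = 0.00108). The cyclin gene Ccnd2 rose by 0.24 (limma adjusted p = 0.0308), a call lost without Vehicle replicate 1 (0.219), Vehicle replicate 2 (0.0618) or HDT replicate 1 (0.0889). Bmp4, at 16.0 and 16.1 CPM in HDT mice and 15.8 and 16.3 CPM in Vehicle mice, had no call (limma adjusted p = 0.991), nor had Foxf1 and Foxf2, with log2 fold changes of 0.27 and -0.03.

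**Figure D4:**
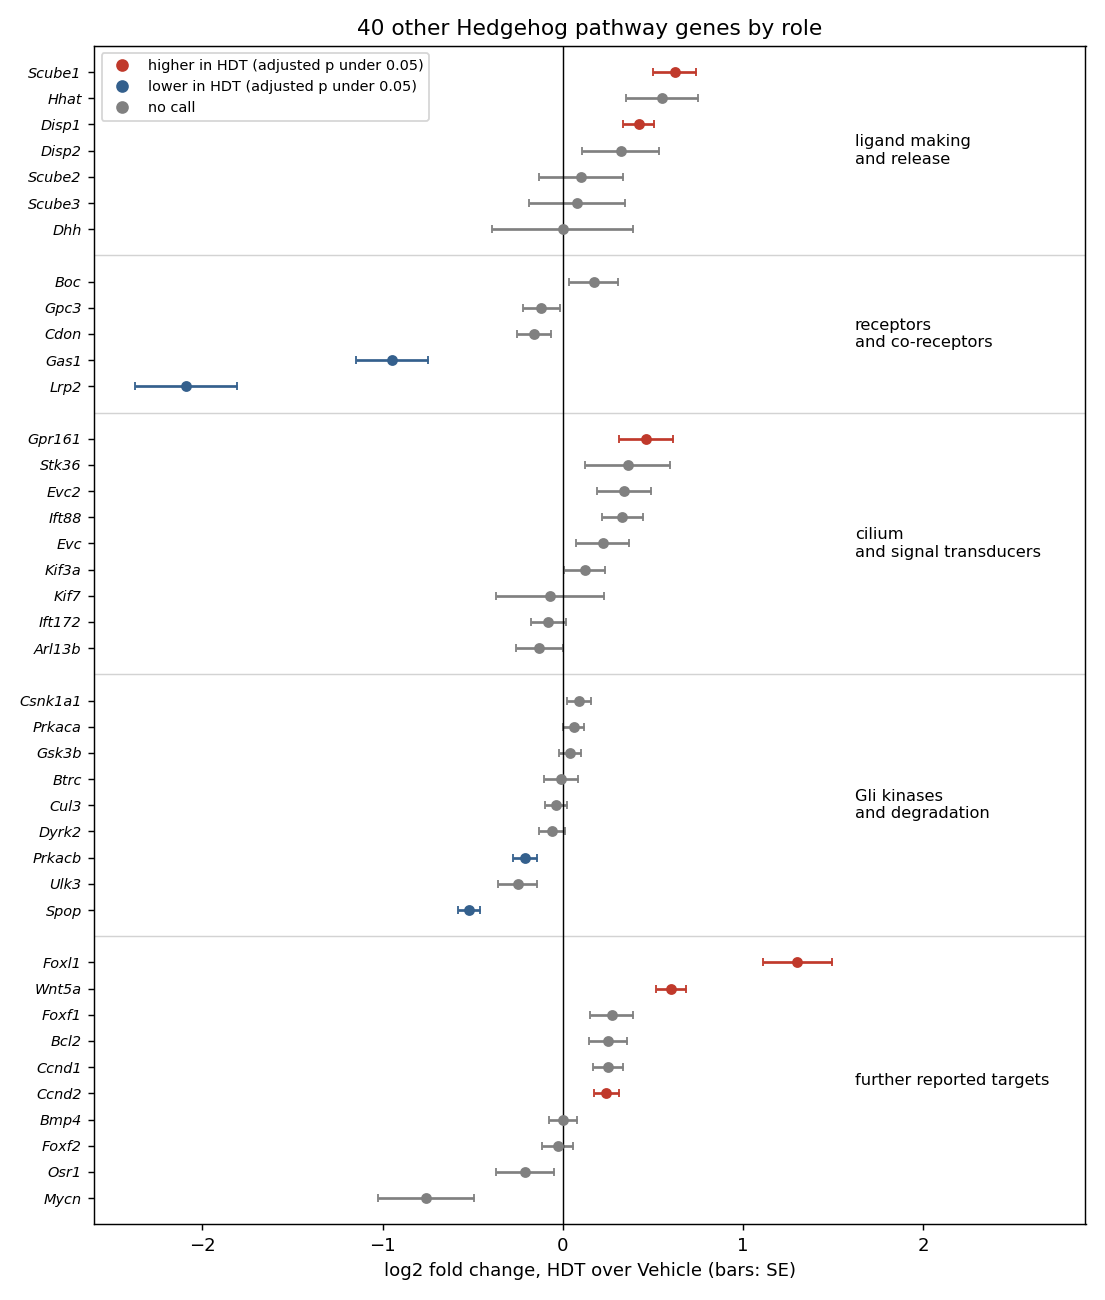
Log2 fold change, HDT over Vehicle, of the 40 other pathway genes, grouped by role, with bars for the SE and colour for the call. Foxl1 lies farthest to the right at 1.30 and Lrp2 farthest to the left at -2.09, and most genes lie near 0 in grey.

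Genes with the pattern most like a member over the 4 libraries were ranked among 15117 tested genes with a mean of at least 1 CPM, by the Euclidean distance between log2 CPM values centred on each gene's mean. For Gli1 the nearest were Ltbp2, Etv4 and Raet1e, at distances of 0.027, 0.039 and 0.041. For Ptch1 they were Mmp19, 2810403D21Rik and Vwa7, at 0.021, 0.021 and 0.038. For Shh they were Gm14453, Tmem47 and Hmcn2, at 0.014, 0.023 and 0.025, and for Ihh Slc25a24, Traf5 and Phldb3, at 0.016, 0.02 and 0.022. The ranking is a description over 4 libraries.

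Other cell type markers give the setting. Of 4 chief cell markers 3 were lower, and of 4 macrophage markers (C1qa and Csf1r the most abundant) 3 were higher. Of 3 endothelial markers (Pecam1 and Kdr the most abundant) 1 was lower. That was Kdr, at a log2 fold change of -0.64, while Pecam1 was at 0.26 without a call. Of 3 mesothelial markers (Msln and Upk3b the most abundant) 2 were lower. These were Upk3b at -2.1 and Wt1 at -2.65, while Msln was at 0.1 without a call. Of 3 markers of glia and neurons (Sox10 and Elavl4) and 2 of adipocytes (Adipoq and Plin1), limma called 0. Tests were possible for 3 of 4 squamous forestomach markers (Krt13 and Krt5) and 1 of 2 antrum markers (Pdx1 and Gast). Of 3 leukocyte markers (Ptprc and Cd79a the most abundant) only Ptprc, which is not particular to lymphocytes, could be tested. Limma called 0 of these tested genes. The summed level of squamous markers was 1.89 and 2.20 CPM in HDT mice and 1.85 and 1.36 CPM in Vehicle mice, and that of antrum markers 0.875 and 0.793 CPM in HDT mice and 0.312 and 0.755 CPM in Vehicle mice. The part of these markers in the members' changes was not tested.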

How the data were processed

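The submitters' processing notes name GRCm38 and mm10 as builds and, as tools, edgeR, featureCounts, Subread 2.0.0 and STAR 2.7.1a. Annotation, strand setting and normalization method: not given in the sources used here. Values the authors deposited are a signal, namely gene counts multiplied by 1 factor per library. Whole reads were recovered by dividing each library by the worth of 1 read (1.12 and 1.11 in HDT replicates 1 and 2, 1.14 and 1.12 in Vehicle replicates 1 and 2), within 0.01, for 100% of the values above 0. Where 4 rows shared 2 symbols they were kept apart.

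Genes were kept by edgeR 4.0.16 filterByExpr. Deposited values were divided by TMM-scaled library sizes (factors 1.219 and 1.183 for HDT, 0.848 and 0.818 for Vehicle), transformed as log2(value + 1) and fitted with limma 3.58.1 (trend, robust, group only, two-sided) in R 4.3.3. The fit was tested on simulated data. Fold changes understate low genes. Replicates differed beyond sampling noise (chi-square per degree of freedom 30.3 for HDT and 15.4 for Vehicle). The labels give 1 mouse per library, and p-values rest on 2 mice per group. Adjusted p-values borrow spread across genes (median prior degrees of freedom 5.87). The value 0.1 was added to CPM for nearest genes. Exon lengths and positions come from GENCODE M21.

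The members and lists were chosen with earlier results of these data known. Some genes first listed were left out of the lists and are not reported here. The naming rule took all 9 members, up to 4 called genes of each role list, the 2 most abundant genes of each marker list and the 3 genes nearest to Shh, Ihh, Ptch1 and Gli1. Other named genes were picked with their values known. Alternatives were DESeq2 1.42.0 size factors and Wald test, edgeR's quasi-likelihood test on recovered reads, upper-quartile scaling, deposited values, other filters and pseudocounts, a replicate block, and leaving out each library.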

Additional observations from a re-analysis of the deposited data

How the results depend on the processing

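With 15 alternatives for each of the 9 members, Ptch1, Smo and Gli1 were called higher in all 15, Hhip in 13 and Sufu in 9. Their log2 fold changes ranged over 0.59 to 1.21, 0.62 to 1.25, 0.94 to 1.57, 0.32 to 0.92 and 0.23 to 0.84. The values as deposited moved most: 11483 genes were higher and 998 lower, 8 members were higher, and 31 other pathway genes were higher and 1 lower. There the log2 fold change was 0.36 for Shh, 0.49 for Gli3, 0.32 for Prkacb and 0.01 for Spop, each negative with TMM, because the common shift of 0.526 is added. With no low-count filter 2 other pathway genes were lower, and the cause was not tested. Leaving out 1 library gave 3 to 5 members higher, 4 to 7 other pathway genes higher and 2 to 4 lower, with 2543 to 2749 of all genes higher and 2773 to 3041 lower against 3369 and 3520 with all 4 libraries, and the fewest members (3) without Vehicle replicate 2. Gli3 ranged from -0.32 without Vehicle replicate 1 to 0.22 without Vehicle replicate 2 and was at 0.16 without HDT replicate 1, with no call in any of these. The lone sample of an arm was then assumed to vary like the other group.

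Replicate numbers share only a number: deviations of same-numbered libraries correlated at -0.142 across genes. With the replicate block 4 members were higher, Sufu losing its call (limma adjusted p = 0.0937), 4 other pathway genes were higher and 3 lower, and 2359 genes were higher and 2623 lower. With the numbers crossed, a pairing chosen after seeing the data, 6 members were higher and 1 lower and 11 other pathway genes were higher, with 4202 of all genes higher and 4323 lower. Both ligands were called there, Ihh higher (0.2, limma adjusted p = 0.0428) and Shh lower (-0.17, limma adjusted p = 0.024).

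Counting error is largest for the genes with few reads, among them Dhh, Gli2 and Gli3 and, of the called genes, Gli1, Lrp2 and Foxl1. Lrp2 had 39 and 23 reads in HDT mice and 83 and 97 reads in Vehicle mice. Foxl1 had 179 and 212 reads in HDT mice and 49 and 59 reads in Vehicle mice.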
